A study of Mus musculus with 12 samples.

Results

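Genes of cholesterol efflux, sterol storage and lipoprotein handling were described in spinal cord white matter of young and middle-aged mice, with and without a demyelinating lesion. The set comprised 10 of the 46078 genes listed in the count table, taken by symbol: Abca1, Abcg1, Soat1, Apoe, Apoc1, Apoc2, Apoc4, Lpl, Pltp and Apod. All 10 had a row of counts, and 9 passed the filter on low counts. Apoc4 did not pass it and is given by its counts.

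Ventrolateral white matter of the spinal cord of C57Bl6 mice was cut out by laser capture microdissection, in which chosen areas of a stained section are freed with a laser, and its RNA was amplified and sequenced. There were 4 groups of 3 pools, and each pool held RNA of 5 mice. Young naïve and middle-aged naïve mice had no lesion. Young injured and middle-aged injured mice had received lysolecithin, a detergent-like lipid that breaks down myelin, in the ventrolateral white matter 72 h earlier. By the methods the young mice were 6 weeks old and the middle-aged ones 8 months, and the labels carry only these words. No mutant allele or drug treatment was part of any of the 4 groups. Lysolecithin was the only agent, and the naïve mice are not described as having had a control injection, so that the injection and the agent cannot be told apart.

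Myelin is rich in cholesterol, which cells cannot break down. Phagocytes that have taken up myelin must therefore store the sterol as esters or hand it to lipoproteins through membrane transporters. Oxysterols, which form when cells hold excess cholesterol, activate the nuclear receptors LXRα and LXRβ. These bind DNA together with RXR and switch on Abca1, Abcg1, Apoe and other genes of export. In the central nervous system the lipoprotein particles are built mainly around apolipoprotein E, made by astrocytes and microglia.

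Of the 10 genes, 4 lie side by side. Apoc2, Apoc4, Apoc1 and Apoe are all on the minus strand of chromosome 7 (GRCm38), within 27610 bases from 19671579 to 19699188. Only 141 bases separate Apoc2 from Apoc4. Intervals of 8001 bases between Apoc4 and Apoc1 and of 3448 bases between Apoc1 and Apoe follow. The other members are on other chromosomes: Abca1 (chr4:53030787-53159895, minus strand), Abcg1 (chr17:31057675-31117988, plus strand), Soat1 (chr1:156424525-156474331, minus strand), Lpl (chr8:68880491-68907448, plus strand), Pltp (chr2:164839518-164857711, minus strand) and Apod (chr16:31296192-31314808, minus strand). Each position is the extent of the gene in GENCODE M21, introns included.

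RefSeq promoters (GRCm38.p6) were at hand for 7 of the 10 genes, and Abcg1, Apoc1 and Lpl were not matched. The bases before the start site of 4 genes are shown, because these genes took different courses in the data: Abca1 and Apoe rose with injury from a measurable level, Apoc2 rose from near 0, and Apod fell. All are on the minus strand and read 5′ to 3′ towards the start: Abca1 at chr4:53159896-53160145, Apoe at chr7:19699189-19699438 (the most upstream of its 3 listed starts), Apoc2 at chr7:19677942-19678082 (the whole gap to Apoc4) and Apod at chr16:31314809-31315058. Capitals mark matches to the motifs described next.
Abca1: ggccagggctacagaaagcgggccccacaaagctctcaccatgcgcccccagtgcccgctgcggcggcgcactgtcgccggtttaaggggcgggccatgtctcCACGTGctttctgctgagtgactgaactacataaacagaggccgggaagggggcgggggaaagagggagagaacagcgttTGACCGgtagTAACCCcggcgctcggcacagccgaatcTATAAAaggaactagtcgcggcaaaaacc
Apoe: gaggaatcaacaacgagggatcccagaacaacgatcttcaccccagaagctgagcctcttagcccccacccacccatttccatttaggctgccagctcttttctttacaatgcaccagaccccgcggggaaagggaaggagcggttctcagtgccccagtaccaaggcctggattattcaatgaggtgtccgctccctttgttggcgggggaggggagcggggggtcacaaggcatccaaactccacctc
Apoc2: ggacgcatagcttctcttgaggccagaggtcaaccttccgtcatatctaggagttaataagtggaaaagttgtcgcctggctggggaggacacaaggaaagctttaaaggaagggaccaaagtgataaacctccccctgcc
Apod: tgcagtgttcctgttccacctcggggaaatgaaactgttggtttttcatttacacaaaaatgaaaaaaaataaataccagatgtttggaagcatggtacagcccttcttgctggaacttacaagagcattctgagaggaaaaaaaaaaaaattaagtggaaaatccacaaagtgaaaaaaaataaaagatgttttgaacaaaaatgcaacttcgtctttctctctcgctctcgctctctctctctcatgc

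The motif searched was a direct repeat spaced by 4 bases, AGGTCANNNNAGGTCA, the arrangement that LXR and RXR bind together. Up to 3 mismatches in the 12 fixed letters were allowed, on both strands. Abca1 held 1 match, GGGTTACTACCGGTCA on the opposite strand, which begins at position -67 relative to the start and has 3 mismatches. The promoters of Apoe, Apoc2, Apoc4, Soat1, Pltp and Apod held no match in the 250 bases before any listed start. Of the 250 bases searched for Apoc2, 109 lie in annotated exons. Sequence outside these windows was not searched, so that matches elsewhere near these genes are not known. Of all 32851 RefSeq promoters, 18.5% held at least 1 match in a window of the same length. The E-box CACGTG, which was in 6.02% of all promoters, was found at position -147 of Abca1. A TATAAA box, which was in 12.4%, was found there at position -29. At another of the listed starts Apoe held 2 TATAAA matches, 1 on each strand, at positions -96 and -100, which overlap each other. The matches in Abca1 did not overlap. Base composition differed among the windows shown, from 36.4% G and C in Apod to 61.6% in Abca1, while the median of all promoters was 52.4%.

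Each pool had from 9834447 to 12807437 counts on genes. The 10 genes together took 0.187% to 0.256% of the counts in young naïve pools and 0.253% to 0.303% in middle-aged naïve pools. With injury their share was 0.645% to 0.748% in the young and 0.609% to 0.739% in the middle-aged pools. Levels are given as CPM, the counts per 1000000 counts of a pool, after TMM scaling (trimmed mean of M values, edgeR). Fold changes and adjusted p-values come from edgeR's quasi-likelihood test of all 12 pools in 1 model, adjusted by the Benjamini-Hochberg method over 15866 genes. A gene counted as changed with an adjusted p under 0.05. Each error after a fold change is a standard error derived from the F statistic, which is unreliable where a group has nearly no counts. A replicate is a pool of mice, so that the spread between the mice of a pool was not measured.

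Marker levels moved with injury. The 6 oligodendrocyte markers, which define the labelled white matter, had a summed level of 86699 to 101953 CPM in young naïve and 53009 to 60301 in middle-aged naïve pools. It was 18251 to 20256 CPM in the young and 7930 to 12447 CPM in the middle-aged pools with injury, and 6 of 6 markers fell at both ages. The summed level of the 6 pan-myeloid markers, shared by microglia and macrophages, was 71.8 to 102 CPM in young naïve and 110 to 147 in middle-aged naïve pools, and 1373 to 1394 and 1461 to 1950 CPM with injury. Of these, 6 of 6 rose with injury at both ages. The 5 markers of homeostatic (resting) microglia were mixed. In young mice 2 rose and 1 fell, and in middle-aged mice 1 rose and 2 fell. Among 4 markers of recruited monocytes, 4 rose at both ages. Their summed level was 0.0906 to 2.11 CPM in naïve pools, 57.9 to 92.5 in young injured and 129 to 177 in middle-aged injured pools. Ccr2 and Plac8 had no count in the 3 young naïve pools. Of 5 astrocyte markers, 4 fell at both ages, from a summed 8326 to 10484 CPM in naïve pools to 3267 to 5138 in injured pools. Fibroblast and mural markers rose in 4 of 4, from a summed 25.2 to 40.8 CPM to 181 to 430. In pooled tissue, more cells of a type and more RNA per cell cannot be told apart, and the part of these shifts in the changes described next was not tested.

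In young mice, 6 of the 9 tested genes rose with injury (Apoc2, Lpl, Abca1, Soat1, Apoe and Abcg1), 1 fell (Apod), and Apoc1 and Pltp did not pass the test. In middle-aged mice the same 6 rose and the same 1 fell. Changes with injury were common among all genes: 28.3% of the tested genes rose and 26.3% fell in young mice, and 29.2% rose and 29.3% fell in middle-aged mice. Genes higher at both ages made up 24.5%. In 35% of all tested genes every young injured pool was above every young naïve pool and in 32.2% every one was below, and the same was so of 31.5% and 29.7% in middle-aged mice. The median log2 fold change of the 9 genes was 2.28 in young and 1.49 in middle-aged mice, beside 0.00 and -0.03 over all tested genes. The comparisons at the 2 ages share no pool. Each of these calls was kept under every alternative of scaling, filter, tool and left-out pool. Scaling by library totals in place of TMM moved the median log2 fold change of all genes by 0.20 in young and 0.11 in middle-aged mice, and the share of higher among all called genes from 51.8% to 62.4% in young mice.

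**Figure D1:**
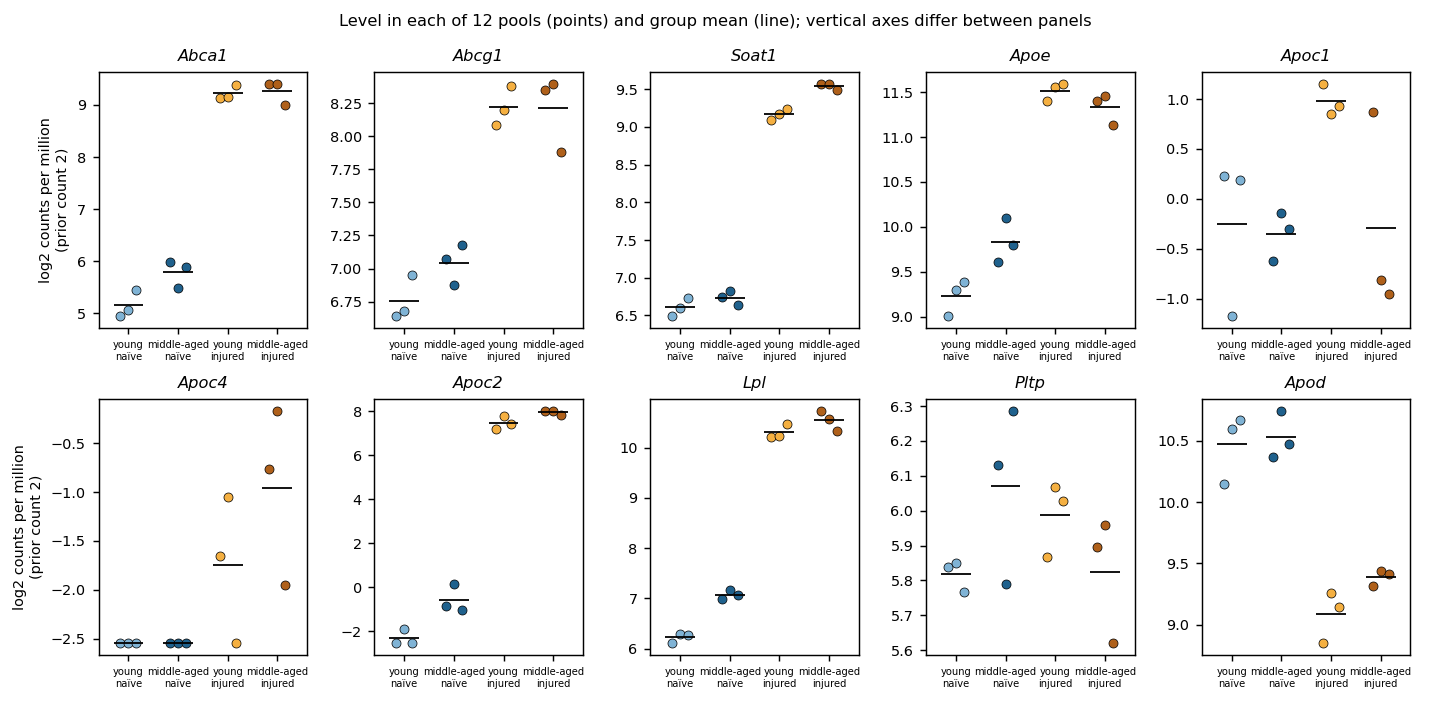
Level of each of the 10 genes in each of the 12 pools, as log2 CPM with a prior count of 2 (vertical axis, different in each panel), by group (horizontal axis); points are pools and lines are group means. Abca1, Abcg1, Soat1, Apoe, Apoc2 and Lpl are higher in every injured pool than in any naïve pool, Apod is lower in every injured pool, and Pltp and Apoc1 overlap between the middle-aged groups.

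Abca1 encodes the transporter that passes cholesterol and phospholipid from the cell membrane to lipid-poor apolipoproteins. Its counts were 337, 369 and 406 in young naïve pools, 662, 426 and 743 in middle-aged naïve pools, 7639, 7371 and 8899 in young injured pools and 8105, 8518 and 5909 in middle-aged injured pools. Every injured pool was thus far above every naïve pool, and the naïve pools of the 2 ages did not overlap after scaling. The mean level was 35.9 ± 6.83 CPM (SD, n = 3) in young naïve, 55.9 ± 9.91 in middle-aged naïve pools, against 601 ± 60.3 and 621 ± 96.1 CPM with injury. With injury Abca1 rose 16.7-fold in young mice (log2 4.07 ± 0.19, edgeR adjusted p = 5.59e-10) and 11.1-fold in middle-aged mice (log2 3.47 ± 0.18, adjusted p = 1.72e-09).

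Abcg1, whose transporter passes sterol on to particles that already carry lipid, changed less. It had 1094 to 1150 counts in young naïve, 1117 to 1803 in middle-aged naïve pools, and with injury 3698 to 4425 in the young and 2727 to 4219 in the middle-aged pools. The mean level was 109 ± 13.1 CPM (SD, n = 3), 132 ± 13.7, 299 ± 31.3 and 300 ± 55.8 in the 4 groups in that order. Naïve and injured pools did not overlap at either age. The rise was 2.76-fold in young mice (log2 1.46 ± 0.15, edgeR adjusted p = 1.59e-06) and 2.27-fold in middle-aged mice (log2 1.18 ± 0.15, adjusted p = 1.05e-05).

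The balance of the 2 transporters turned with injury. The ratio of Abca1 counts to Abcg1 counts was 0.329 ± 0.0226 (SD, n = 3) in young naïve pools and 0.422 ± 0.0467 in middle-aged naïve pools. With injury it was 2.01 ± 0.0605 in the young and 2.08 ± 0.0762 in the middle-aged pools. No naïve pool exceeded 0.473 and no injured pool was under 1.94. This ratio is of counts, and Abca1 has the longer exons (10363 bases, against 7298 for Abcg1), so that its size is not a ratio of transcripts.

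Soat1 encodes the enzyme that esterifies cholesterol for storage in lipid droplets. Its counts were 987, 1072 and 983 in young naïve pools, 1117, 1078 and 1240 in middle-aged naïve pools, 7451, 7439 and 8053 in young injured pools and 9192, 9481 and 8325 in middle-aged injured pools. It had the smallest standard errors among the 6 genes that rose. The mean level was 97.6 ± 7.90 CPM (SD, n = 3), 107 ± 6.98, 577 ± 29.7 and 746 ± 24.0. Soat1 rose 5.91-fold in young mice (log2 2.56 ± 0.11, edgeR adjusted p = 2.78e-10) and 7.01-fold in middle-aged mice (log2 2.81 ± 0.11, adjusted p = 1.46e-10). The ratio of Soat1 counts to Abca1 counts fell from 2.75 ± 0.286 in young naïve to 0.963 ± 0.0532 in young injured pools, and from 1.96 ± 0.492 in middle-aged naïve to 1.22 ± 0.165 in middle-aged injured pools, without overlap at either age.

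Apoe, the main apolipoprotein of the central nervous system, was the most counted member in all injured pools. Its counts were 5647, 6919 and 6196 in young naïve pools, 8124, 10444 and 11135 in middle-aged naïve pools, 36799, 38878 and 41081 in young injured pools and 32563, 35181 and 25983 in middle-aged injured pools. It took 24.6% to 25.8% of the counts of the 10 genes in young naïve pools and 44.6% to 45.9% in young injured pools. The rise was 4.87-fold in young mice (log2 2.28 ± 0.15, edgeR adjusted p = 1.80e-08) and 2.80-fold in middle-aged mice (log2 1.49 ± 0.15, adjusted p = 8.56e-07).

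Apoc2, at the other end of the cluster from Apoe, encodes the cofactor that lipoprotein lipase needs. It had 0, 1 and 0 counts in young naïve pools, 4, 9 and 4 in middle-aged naïve pools, 1997, 2827 and 2307 in young injured pools and 3155, 3271 and 2604 in middle-aged injured pools. The gene was thus near the limit of detection without injury and well measured with it. The summed counts of 7131 against 1 gave a ratio of 5609 after TMM scaling in young mice, with an exact 95% interval of 1006 to 221574 that covers counting error only. In middle-aged mice, 9030 counts against 17 gave a ratio of 477 (298 to 819). The edgeR adjusted p was 3.98e-11 in young and 3.91e-11 in middle-aged mice. The fitted log2 fold changes of 12.04 ± 0.39 and 8.86 ± 0.29, and their errors, depend on the prior count used. These errors do not measure the precision of a fold from nearly no counts. DESeq2 gave 12.36 ± 1.19 in young and 8.91 ± 0.39 in middle-aged mice.

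The remaining members of the cluster were scarce. Apoc1, which encodes a small exchangeable apolipoprotein, had 11, 3 and 9 counts in young naïve pools, 5, 7 and 8 in middle-aged naïve pools, 28, 21 and 23 in young injured pools and 20, 5 and 4 in middle-aged injured pools. The young groups did not overlap, and the middle-aged groups did. With injury it differed by log2 1.27 ± 0.60 at the young age (edgeR adjusted p = 0.0869) and by 0.37 ± 0.64 at middle age (adjusted p = 0.642). With only the 6 young pools in the fit the young difference passed (1.27 ± 0.45, adjusted p = 0.0331). At middle age its sign rested on 1 library, since it was -0.71 (adjusted p = 0.396) without middle-aged injured replicate 1. Apoc4 had no count in any of the 6 naïve pools, where 3 counts, the limit that a count of 0 allows, correspond to 0.234 to 0.305 CPM. It had 2, 4 and 0 counts in young injured pools and 5, 9 and 1 in middle-aged injured pools. The middle-aged injured sum of 15 was at least 1.5-fold higher than a limit of 3 counts per naïve pool. In young mice the summed counts of both groups were under that limit, though 1 injured pool held 4. With no filter on low counts edgeR called it higher in middle-aged mice (log2 5.29 ± 1.81, adjusted p = 0.0154) and not in young mice (0.122). DESeq2 did not call it in middle-aged mice (adjusted p = 0.0754) or in young mice (0.274).

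Apoc2 and Apoc4 share annotation with Gm44805, a readthrough gene that overlaps 646 exon bases of Apoc2 and 119 of Apoc4 on the same strand. Of the 31-base words of Apoc2, 617 of 783 also occur in transcripts of other genes. The count table has no row for Gm44805, so that its reads and those of Apoc2 were not told apart. How the authors' counting treated shared reads is not given in the sources used here.

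Lpl encodes lipoprotein lipase, which releases fatty acids from lipoprotein triglycerides. Its counts were 758, 859 and 716 in young naïve pools, 1326, 1366 and 1669 in middle-aged naïve pools, 16241, 15569 and 18966 in young injured pools and 20599, 19016 and 14870 in middle-aged injured pools. No pool of any naïve group came near an injured one, and all middle-aged naïve pools were above all young naïve pools. Mean levels were 74.6 ± 4.85 CPM (SD, n = 3), 135 ± 8.09, 1276 ± 132 and 1504 ± 213 in the 4 groups. Lpl rose 17.1-fold with injury in young mice (log2 4.10 ± 0.14, edgeR adjusted p = 4.76e-11) and 11.2-fold in middle-aged mice (log2 3.48 ± 0.14, adjusted p = 1.47e-10).

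Pltp, the phospholipid transfer protein that moves phospholipid between particles, did not pass the test. Its counts were 505 to 634 in young naïve, 526 to 974 in middle-aged naïve pools, and with injury 793 to 864 in the young and 568 to 777 in the middle-aged pools. After scaling, every young injured pool was above every young naïve pool, by a log2 difference of 0.17 ± 0.14 (edgeR adjusted p = 0.326), and the middle-aged pools overlapped (-0.25 ± 0.14, adjusted p = 0.139). Without middle-aged naïve replicate 2 the middle-aged difference was -0.38 and did pass, with an adjusted p of 0.0190. Pltp shares 495 exon bases with Ctsa on the opposite strand, which had 1311 to 9718 counts per pool. The strand setting of the counting is not given in the sources used here, so that reads of the pair in that stretch cannot be told apart.

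Apod was the member that fell. It encodes a small lipid carrier of the lipocalin family, which is unrelated to the other apolipoproteins in sequence. Its counts were 12431, 17069 and 15200 in young naïve pools, 13789, 16394 and 17802 in middle-aged naïve pools, 6283, 7892 and 7522 in young injured pools and 7660, 8672 and 7872 in middle-aged injured pools. Injured pools were below naïve pools at both ages without overlap. Apod had a log2 fold change of -1.40 ± 0.15 at the young age (edgeR adjusted p = 3.07e-06) and of -1.15 ± 0.15 at middle age (adjusted p = 1.63e-05). With Apoe higher and Apod lower, the ratio of Apoe counts to Apod counts went from 0.422 ± 0.0276 (SD, n = 3) to 5.41 ± 0.467 in young mice and from 0.617 ± 0.0250 to 3.87 ± 0.502 in middle-aged mice.

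**Figure D2:**
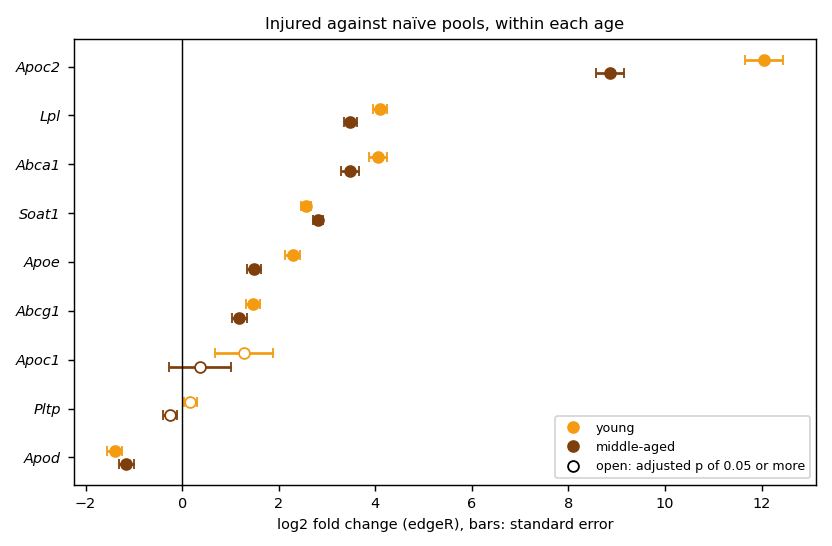
Log2 fold change with injury (horizontal axis) of the 9 tested genes in young and middle-aged mice, with bars of 1 standard error; open symbols did not pass an adjusted p of 0.05. Apoc2 lies at 12.04 and 8.86, where the bars are unreliable, Lpl and Abca1 lie between 3.47 and 4.10, and Apod lies at -1.40 and -1.15.

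Set beside the marker lists, the members kept different proportions. The level of Abca1 divided by the summed level of the 6 pan-myeloid markers was 0.434 ± 0.0113 (SD, n = 3) in young naïve, 0.432 ± 0.135 in middle-aged naïve pools, and with injury 0.434 ± 0.0409 in the young and 0.348 ± 0.00191 in the middle-aged pools. For Lpl this ratio was 0.919 ± 0.148, 1.02 ± 0.128, 0.921 ± 0.0899 and 0.845 ± 0.0576. Both genes and the marker sum therefore rose by a similar factor with injury in young mice. The single markers rose unequally there, from log2 2.08 for Csf1r to 6.90 for Cd68. Csf1r led the sum in young naïve pools (mean 57.9 of 82.9 CPM) and Cd68 in young injured pools (743 of 1385 CPM). The size of these ratios thus depends on the markers chosen. Apoe was 7.36 ± 0.944 times the marker sum in young naïve and 2.12 ± 0.134 times in young injured pools, and Soat1 was 1.2 ± 0.141 and 0.416 ± 0.0183 times. For Apoc2 the ratio went the other way, from 0.00410 ± 0.00229 in middle-aged naïve to 0.141 ± 0.0113 in middle-aged injured pools. Apod divided by the summed oligodendrocyte markers was 0.0151 ± 0.00174 in young naïve and 0.0278 ± 0.00249 in young injured pools, so that Apod fell by less than those markers. These ratios describe the pools and carry no test.

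Levels of the 10 genes were compared with each other per kilobase of exon. In naïve pools of both ages the order began with Apod, Apoe, Pltp and Abcg1: in young naïve pools the levels were 558 ± 104 (SD, n = 3), 282 ± 36.9, 22.0 ± 0.670 and 14.9 ± 1.80 CPM per kilobase. In injured pools of both ages it began with Apoe, Apoc2, Apod and Lpl: in young injured pools the levels were 1373 ± 97.0, 221 ± 45.1, 212 ± 30.0 and 122 ± 12.6 CPM per kilobase. Pltp, which was in the upper part of the order without injury at 22.0 ± 0.670 and 26.4 ± 4.50 CPM per kilobase, was the eighth with it, at 24.7 ± 1.79 and 22.2 ± 2.68. Neighbours in the order overlapped in their pools only between Apoc2 and Apoc4 in young naïve, Apoc1 and Apoc2 in middle-aged naïve, and Apoc2 and Apod as well as Soat1 and Abca1 in young injured pools. Exon lengths count every annotated exon of a gene, so that a level per kilobase is lower for genes with long exons that the transcripts of this tissue leave out.

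**Figure D3:**
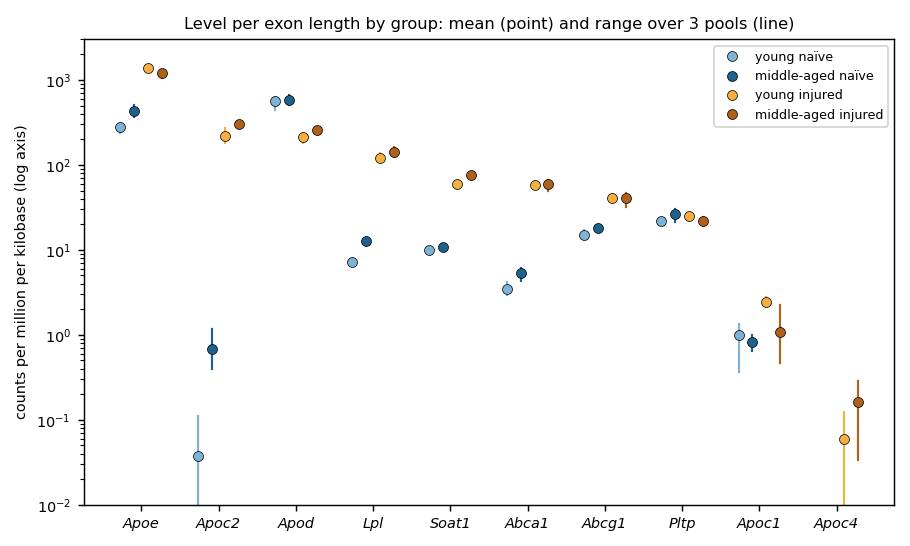
Level per kilobase of exon (vertical log axis) of the 10 genes in the 4 groups; points are means and lines the range of 3 pools, means of 0 are not drawn, and a line reaching the lower edge starts at 0. Apod and Apoe lead in naïve pools, and Apoe leads in injured pools at 1373 and 1209 CPM per kilobase.

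The comparison of ages in uninjured white matter asked whether these genes already differ before a lesion. Lpl, Apoe and Apoc2 were higher in middle-aged naïve than in young naïve pools, 3 of the 9 tested genes, and 0 were lower, where 2.02% of all tested genes were higher and 1.78% lower. By edgeR 4 of the 9 genes had an unadjusted p under 0.05, as did 18.3% of all tested genes, and the 4 were higher in middle-aged pools. DESeq2 called 4 higher and 0 lower, and it called 1085 genes in all, where edgeR called 603. The median log2 difference of the 9 genes was 0.28, beside 0.01 over all genes.

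Lpl was 1.80-fold higher in middle-aged naïve pools (log2 0.85 ± 0.13, edgeR adjusted p = 0.00222), and it passed under every alternative, with the highest adjusted p of 0.0351 from the 6 naïve pools alone. Apoe was 1.53-fold higher (log2 0.61 ± 0.14, adjusted p = 0.0328), with levels of 514 to 666 CPM in young naïve and 780 to 1096 CPM in middle-aged naïve pools. Its call was lost with only the 6 naïve pools (adjusted p = 0.192). It was also lost without middle-aged injured replicate 1 (0.0541), middle-aged naïve replicate 2 (0.0755), young injured replicate 2 (0.0558) or 3 (0.0520) and young naïve replicate 1 (0.121) or 2 (0.0919), while the log2 difference stayed between 0.47 and 0.72. Apoc2 had 17 counts against 1, a ratio of 16.4 with an exact 95% interval of 2.57 to 686 for counting error (edgeR adjusted p = 0.0417). That call was lost in 8 of the 12 fits that each left out 1 pool: any of the 3 young naïve pools (0.0734 to 0.142), any of the 3 middle-aged injured pools (0.0522 to 0.0596), middle-aged naïve replicate 2 (0.118) or young injured replicate 3 (0.0616).

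Abca1 was 1.56-fold higher in middle-aged naïve pools without overlap, but its adjusted p was 0.0532 with edgeR (log2 0.64 ± 0.17). It passed with DESeq2 (adjusted p = 0.0142), with no filter on low counts (0.00508), without middle-aged naïve replicate 2 (0.0176) and without young naïve replicate 3 (0.0357). Of the naïve comparisons, 7.77% of all tested genes were higher in every middle-aged pool, and Abca1, Apoe, Apoc2 and Lpl were so among the members. The remaining 5 tested members differed by log2 -0.26 to 0.28, and none of these passed. In the same pools 4 of the 6 pan-myeloid markers were higher in middle-aged mice, with a median log2 difference of 1.14, and of the 6 oligodendrocyte markers 3 were lower. The mitochondrial ribosomal RNA mt-Rnr2 took 13.9% to 15.4% of the counts in middle-aged naïve and 9.90% to 12.4% in young naïve pools, without overlap. The part of these markers and of this RNA in the age differences was not tested.

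Among injured pools, 0 of the 9 tested genes differed between ages by edgeR, where 1.15% of all tested genes did. Unadjusted p-values under 0.05 were found for 2 of them, Soat1 and Apoc2, and for 9.62% of all tested genes. DESeq2 called 1 member, Soat1, and 446 genes in all, where edgeR called 182. Soat1 was 1.29-fold higher in middle-aged injured pools (log2 0.37 ± 0.10), with levels of 719 to 763 CPM against 547 to 606 CPM in young injured pools. The edgeR adjusted p was 0.111, against 0.010 with DESeq2 and 0.0337 with edgeR on only the 6 injured pools. Apoc2 (log2 0.47 ± 0.17, edgeR adjusted p = 0.304) and Apod (0.29 ± 0.15, adjusted p = 0.611) were also higher in every middle-aged injured pool, which 11.1% of all tested genes were. Abcg1 differed by log2 0.00 ± 0.15 and Abca1 by 0.05 ± 0.16. With 3 pools per group, differences well above these errors did not pass by edgeR either, as for Soat1 and Apoc2 here. In these pools, of the 6 oligodendrocyte markers 5 were lower at middle age, as were 1 of 5 astrocyte and 1 of 4 fibroblast and mural markers. Of the 6 pan-myeloid markers 0 passed, with a median log2 difference of 0.34. Of the 4 recruited monocyte markers 0 passed. Their summed level was 57.9 to 92.5 CPM in young injured and 129 to 177 CPM in middle-aged injured pools. The part of these markers in the age differences was not tested.

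**Figure D4:**
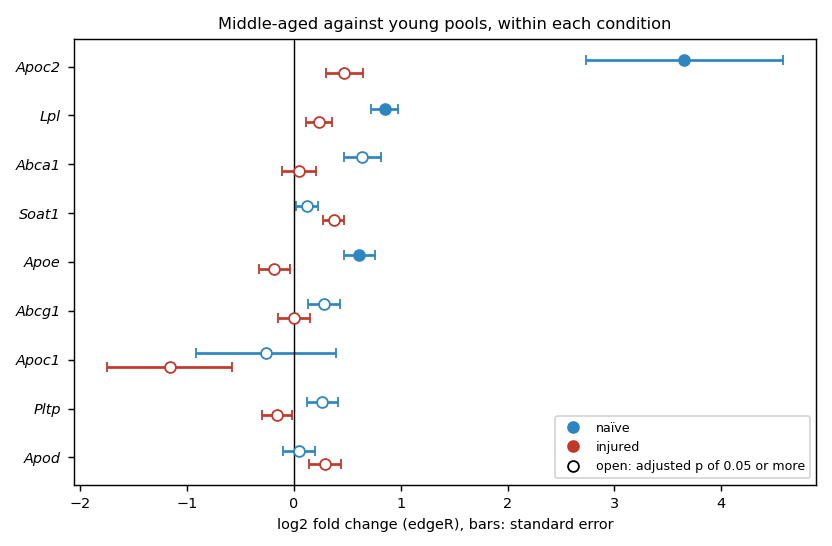
Log2 difference of middle-aged against young pools (horizontal axis) of the 9 tested genes in naïve and injured tissue, with bars of 1 standard error; open symbols did not pass an adjusted p of 0.05. Apoc2, Lpl and Apoe pass among naïve pools at 3.66, 0.85 and 0.61, and no gene passes among injured pools.

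The injury effect was then compared between the ages in 1 test. By edgeR 0 of the 9 genes differed, where 0.139% of all tested genes did. The count at an unadjusted p under 0.05 was 4 (Apoe, Lpl, Apoc2 and Abca1), all with the smaller rise in middle-aged mice, where 9.92% of all tested genes were under it. DESeq2 called 1 member, Apoe, and 240 genes in all, where edgeR called 22. The injury effect on Apoe differed by log2 -0.80 ± 0.20 in middle-aged against young mice. The adjusted p was 0.147 with edgeR, 0.0325 with DESeq2 and 0.0144 with edgeR and no filter on low counts. The difference was -0.61 ± 0.18 for Lpl (edgeR adjusted p = 0.201), -0.59 ± 0.24 for Abca1 (0.405) and -3.18 ± 0.96 for Apoc2 (0.224, and 0.0484 without the filter). For Soat1 it was 0.25 ± 0.14 (0.628). The same 4 genes were those with an unadjusted p under 0.05 between the naïve ages. The naïve pools enter both comparisons, and their levels in the 4 groups are given above.

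Other genes of sterol and lipoprotein handling were grouped into 7 lists with 43 genes, of which 32 passed the filter on low counts. With injury 12 of the 32 rose and 12 fell in young mice, and 11 rose and 15 fell in middle-aged mice. Of all tested genes 28.3% rose and 26.3% fell in young mice, and 29.2% rose and 29.3% fell in middle-aged mice. The median log2 fold changes of the 32 were -0.33 and -0.31. Members of the lists thus moved in both directions, as did all tested genes. Adjusted p-values are those of edgeR over all genes, and values are log2 fold changes with injury in young and then in middle-aged mice.

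The first list holds the nuclear receptors that oxysterols act on and an LXR target. Of 6 genes, 3 rose and 1 fell at both ages. Mylip, which encodes a ubiquitin ligase and is itself switched on by LXR, rose by 2.44 ± 0.16 (adjusted p = 1.81e-08) and 2.20 ± 0.16 (4.03e-08). Nr1h3, which encodes LXRα, had 19 to 102 counts per pool and rose by 1.1 ± 0.28 (0.00357) and 1.86 ± 0.28 (4.36e-05). Nr1h2, which encodes LXRβ, did not pass at either age, with -0.04 (0.918) and 0.29 (0.339). Rxra, a partner of LXR on DNA, rose by 1.09 (4.55e-05) and 0.99 (8.65e-05), while Rxrg, another RXR gene with 29 to 115 counts, fell by 0.97 (0.0244) and 1.17 (0.00960).

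The other transporters of sterol and phospholipid were mixed. Of 6 genes, 2 rose and 3 fell in young mice, and 1 rose and 3 fell in middle-aged mice. Scarb1, the receptor that exchanges cholesterol esters with high-density particles, rose by 1.44 (adjusted p = 3.21e-06) and 1.57 (1.20e-06). Abca2 fell by 1.85 (2.23e-07) and 2.34 (2.24e-08), and it was also lower in middle-aged injured than in young injured pools, by a log2 difference of -0.80 (0.0232).

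Genes that release sterol in the lysosome or turn over its esters rose in 4 of 7 and fell in 1 of 7 at both ages. Lipa, the lysosomal acid lipase that splits the cholesterol esters a cell takes up, rose by 3.01 (adjusted p = 3.48e-09) and 3.70 (6.18e-10). Nceh1, an ester hydrolase of lipid droplets and membranes, rose by 1.80 (4.11e-08) and 2.49 (2.13e-09). Soat2, the relative of Soat1 known from intestine and liver, had 0 to 20 counts per pool and rose (0.00651 and 0.00142). Its naïve levels were near the limit of detection, so that its fitted values of 3.07 and 3.97 depend on the prior count. Npc1, which exports sterol from the lysosome together with Npc2, differed by -0.00 (0.987) and 0.06 (0.708), while Npc2 rose by 0.68 (0.00343) and 1.22 (2.79e-05). Lipe, the hormone-sensitive lipase, fell by 0.87 (0.0251) and 0.79 (0.0349).

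Among 5 lipoprotein receptors, 1 rose and 3 fell in young mice, and 1 rose and 4 fell in middle-aged mice. Lrp1, a large receptor for Apoe-bearing particles and many other ligands, rose by 1.83 (adjusted p = 1.50e-06) and 1.94 (7.26e-07). Sorl1, a sorting receptor of the same family, fell by 1.42 (3.52e-07) and 1.5 (1.84e-07), and Vldlr, a receptor for Apoe-bearing particles, fell by 1.3 (6.23e-06) and 1.56 (9.97e-07). Among 8 further apolipoproteins only Clu passed the filter, with 5346 to 13248 counts per pool, and it fell by 0.89 (5.23e-05) and 1.02 (1.35e-05). The other 7 had at most 45 counts in a pool.

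Of 7 partners of lipases and enzymes of lipoproteins, 3 could be tested. Angptl4, an inhibitor of lipoprotein lipase, rose by 3.75 (adjusted p = 2.70e-06) and 4.01 (8.76e-07), from as few as 4 counts in a pool to as many as 391. Lcat, which esterifies cholesterol on particles outside the cell, fell by 2.0 (3.00e-06) and 2.83 (1.45e-07). Gpihbp1, which holds lipoprotein lipase on the vessel wall, had at most 1 count in a pool. Among the 4 enzymes that make or clear oxysterols, Ch25h, which makes 25-hydroxycholesterol, rose by 8.06 ± 0.64 (1.11e-07) and 4.78 ± 0.47 (7.65e-07). It had 0 to 522 counts per pool, and its mean of 0.121 CPM in young naïve pools was under the limit of detection, so that the first of these values depends on the prior count. Cyp27a1, which makes 27-hydroxycholesterol, fell by 2.14 (6.26e-07) and 2.43 (1.47e-07). Of this list 1 rose at both ages, 2 fell in young and 3 fell in middle-aged mice.

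**Figure D5:**
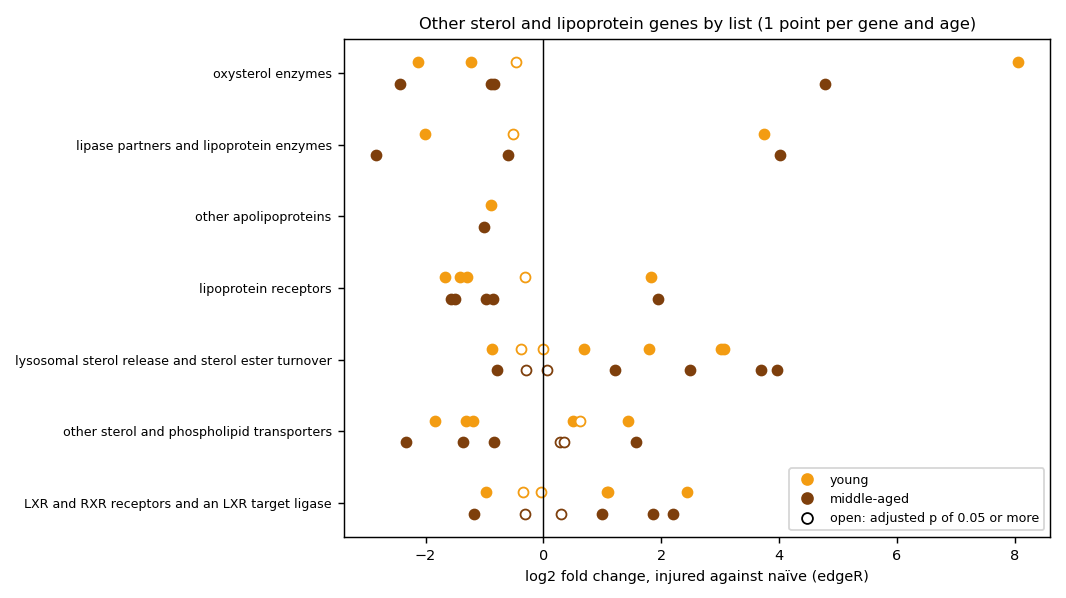
Log2 fold change with injury (horizontal axis) of the 32 tested genes of the 7 lists, 1 point per gene in young and in middle-aged mice; open symbols did not pass an adjusted p of 0.05. Each list with more than 1 gene has points on both sides of 0, from -2.83 for Lcat to 8.06 for Ch25h.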

How the data were processed

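The deposited values are raw counts per gene for 12 pools. To obtain them the authors inspected reads with FastQC 0.11.4, aligned them on GRCm38 by TopHat 2.0.10, which ran bowtie 1.1.2, and summed them with featureCounts. The annotation release, the strand setting and the handling of shared reads are not given in the sources used here. RNA had been amplified, so that reads are not independent molecules and intervals cover counting error only.

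Totals were 9834447 to 12807437 counts per pool, which puts 3 counts at 0.234 to 0.305 CPM. Counts were scaled by TMM, filtered with filterByExpr and tested in R 4.3.3 with edgeR 4.0.16 (glmQLFit, glmQLFTest) with 1 coefficient per group. The 5 contrasts were injury at each age, age in each condition, and their interaction. Standard errors of log2 fold changes were obtained by dividing each by the root of its F statistic. The edgeR steps were also tested on simulated data. Ratios of summed counts were scaled by TMM and carry exact 95% intervals. Of the 46078 gene identifiers, 45143 had a symbol. Positions and exon lengths came from GENCODE M21, and promoters from RefSeq.

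Groups and replicate numbers came from the labels. The paper's methods name DESeq2, used here (1.42.0) as an alternative beside other scalings, filters, a replicate block, only the pools compared, and each pool left out. The 10 genes, the lists and the markers were chosen with earlier results of these data known. All 10 genes are described. Of each list the genes with the highest and lowest fold change in young injury are named, except for 1 gene that is not reported here, and a few others were chosen after their values were seen. Genes most like a member were those with the smallest root mean square difference of centred log2 CPM (prior count 2). Pools were not treated as pairs. The paper's other experiments were not analysed here.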

Additional observations from a re-analysis of the deposited data

How the results depend on the processing

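With injury 6 members were higher and 1 lower at each age in every alternative, except that 7 were higher in young mice with only 6 pools (Apoc1 added) and in middle-aged mice with no filter (Apoc4 added), and 2 were lower in middle-aged mice without middle-aged naïve replicate 2 (Pltp added, range 1 to 2 over left-out pools). The number higher with age in naïve pools was 3 (range 1 to 3 over left-out pools), with Abca1 added by DESeq2 or with no filter. It was 1 with only the 6 pools compared or without middle-aged injured replicate 1, young injured replicate 3 or young naïve replicate 1 or 2. In injured pools it was 0, and 1 with DESeq2 or only 6 pools. The interaction had 0 lower, 1 with DESeq2 and 2 with no filter.

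Over all genes, age in naïve pools gave 603 calls, against 1085 with DESeq2, 1153 with no filter, 71 with only 6 pools and as few as 261 with a pool left out. Age in injured pools gave 182, against 446, 437, 818 and 45 to 410. The interaction gave 22, against 240 with DESeq2, 329 with no filter and 3 to 56 with a pool left out. The cause was not tested. Scaling by library totals moved the median log2 fold change of all genes by 0.20 in young and 0.11 in middle-aged injury, and the share of higher among the calls from 51.8% to 62.4% in young injury and from 40.9% to 25.8% for the interaction.

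Signs turned only for differences that never passed. Between injured ages, Abca1 was -0.011 with library totals and -0.019 to 0.18 without 1 pool. Abcg1 was -0.058 with library totals, -0.0018 with no filter, -0.0019 with only 6 pools, -0.0020 with upper-quartile scaling and -0.088 to 0.16 without 1 pool. Between naïve ages, Apoc1 was -0.67 to 0.024 without 1 pool, above 0 without young naïve replicate 1, and Apod was -0.097 to 0.15, below 0 without that pool or middle-aged naïve replicate 2. With injury at middle age Apoc1 was -0.71 to 0.73, below 0 without middle-aged injured replicate 1.

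Same-numbered pools did not deviate together (r of -0.113 to 0.153), so that the numbers do not pair the pools. With the replicate number as a block, 6 members were higher and 1 lower with injury at each age and 3 were higher with age in naïve pools, as without it, and all-gene calls were 8577, 9153, 529, 189 and 31 in the order of the contrasts. Apoc2 with age in naïve pools could not be fitted with only 6 pools, where it was filtered out. Depth limits Apoc1, Apoc4 and naïve Apoc2, and the 3 pools per group limit the age comparisons.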

Other observations

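The 4 genes of the cluster on chromosome 7 had 4 annotated protein-coding neighbours with counts within 50 kilobases. Genes of other types were not looked at. Relb (log2 fold change with injury 0.48 ± 0.41 at the young age, edgeR adjusted p = 0.337, and 0.30 ± 0.39 at middle age, 0.532) and Clptm1 (-0.30 ± 0.17, 0.155, and 0.33 ± 0.17, 0.119) lie beyond Apoc2 and did not pass. Tomm40, beside Apoe, differed by 0.14 ± 0.25 (adjusted p = 0.672) and, at middle age, rose by 0.76 ± 0.25 (0.0184). Nectin2, further on, rose by 2.54 ± 0.35 (adjusted p = 2.38e-05) and 2.06 ± 0.34 (adjusted p = 0.000126), from as few as 6 to as many as 68 counts.

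For each tested member, the gene with the most similar course over the 12 pools was found among 13077 genes, by the root mean square difference of log2 CPM after centring each gene on its own mean. Abca1 was nearest to Hpgds (0.195), Abcg1 to Nfkb1 (0.148), Soat1 to Sgpl1 (0.118) and Lpl to Adcy7 (0.142). Apoe was nearest to Cx3cr1 (0.1788), with Cd302 almost equally near (0.1790). Pltp was nearest to Mxi1 (0.0968) and Apod to Dusp26 (0.133). Apoc2 had no close neighbour, with Msr1 at 0.555, and neither had Apoc1, with Lama5 at 0.430. The pools share the 4 groups, so that any genes that move with injury by the same amount are near by this measure.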
